A study of Homo sapiens with 16 samples.

Results

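The response of whole kidney organoids to tumour necrosis factor alpha (TNFα) was measured in 4 bulk RNA libraries, which are 4 of the 16 samples of the series, and all 21093 genes of their table are described. The organoids were grown from the human embryonic stem cell line UM77-2, and the spheroids that formed were lysed whole. The libraries are vehicle control (VC) at 24 h, VC at 48 h, TNFα at 24 h and TNFα at 48 h, 1 library each. TNFα was given at 5 ng/ml, and the vehicle was phosphate-buffered saline (DPBS). All 4 were collected on day 25 of culture. The labels place the start of treatment on day 23, whereas the methods give 24 h or 48 h before collection, so the hour at which the 24 h wells were first exposed is not certain. The groups share 1 cell line and 1 culture protocol, no genotype differs between them, and organoids of this kind hold stromal and off-target cells beside nephron cells.

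TNFα is a cytokine that binds the receptors TNFR1 and TNFR2. Bound TNFR1 assembles a complex of adaptors, ubiquitin ligases and kinases that frees NF-κB subunits from their inhibitors and also feeds the MAP kinase and death pathways. In the kidney the cytokine is known for its part in glomerular and tubular inflammation, where chemokines, adhesion molecules and complement are made by resident cells.

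The libraries held 49948198 to 59246286 reads, and 1 CPM, a read count scaled by the depth of its library, rests on 49.9 to 59.2 reads. Levels below are log2(CPM + 1), and a difference or fold change is TNF minus VC on that scale, which understates the change of low genes. A single fit over both times (limma, with time as a term) stands behind each call, so the times act as replicates, and a call is an adjusted p under 0.05. The spread behind the SE and p-value of a gene is the gap between its differences at 24 h and 48 h. It is moderated over all genes, with 15.7 prior degrees of freedom beside 1 residual, so both rest mostly on pooled variance. Nothing in the labels says that the 4 libraries came from separate cultures, so this spread may be technical. TNFα raised 1776 genes (8.42% of those tested) and lowered 2285 (10.8%). The counts in gene lists below are to be read beside these shares. Calls in either direction made up 22.8% of the 15368 protein-coding genes tested and 12.3% of the 3665 long noncoding ones. Lists of coding genes therefore start from the higher share. Of the 4061 called genes, 1 had opposite signs at 24 h and 48 h. The call itself favours a shared sign, as opposite differences give a small mean and a wide gap. The counts were 1206 higher and 978 lower with DESeq2, where the share of higher calls was larger, and 2322 and 2133 with edgeR. Fits with 1 library left out also had to drop the time term, since 3 libraries leave no residual degree of freedom with it, so here and below they change both choices at once. Dropping the time term alone, with all 4 libraries, gave 637 higher and 673 lower. With the VC 24h library left out as well, limma called 342 higher and 296 lower, without TNF 24h 369 and 358, without VC 48h 388 and 338, and without TNF 48h 402 and 336.

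Most changes were small. A log2 fold change of at least 1 was reached by 227 called genes that rose and by 149 that fell, and the median of all tested genes was -0.03. Taken time by time with no test, 424 genes (2.01%) differed by at least 1 at 24 h and 384 (1.82%) at 48 h, and 291 of them did so in the same direction at both times. Over the 20488 genes that the replicated day-course table (set 2) also lists, 419 and 378 genes passed that size. Between the VC libraries at 48 h and 24 h, 44 of the same genes differed by as much, and 46 did between the TNF libraries. The 3 replicate pairs of set 2, which are organoids of the same line on days 21, 25 and 29, gave 16, 8 and 63 such genes.

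**Figure D1:**
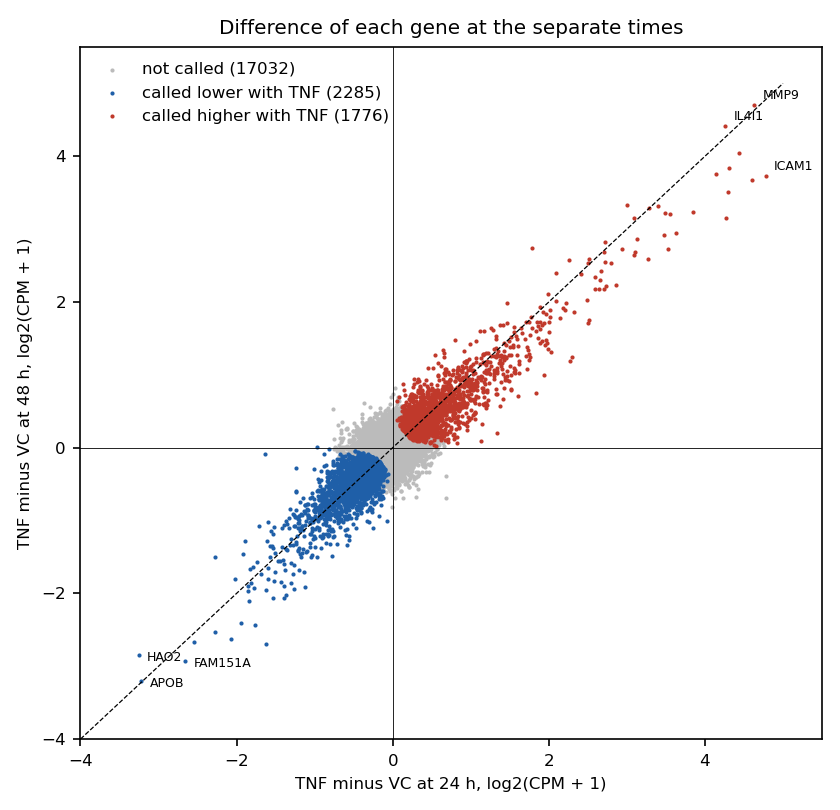
Each point is 1 of 21093 genes, placed by its TNF minus VC difference in log2(CPM + 1) at 24 h (horizontal) and at 48 h (vertical). Red and blue mark the 1776 called higher and the 2285 called lower, grey the genes not called, and the dashed line marks equal differences. All called genes but 1 lie in the quadrants of shared sign, which the call itself favours, out to MMP9 at the top and APOB at the bottom.

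The receptors of the cytokine were both expressed. TNFRSF1A (TNFR1, ENSG00000067182, chromosome 12, 6328757 to 6342114, minus strand) stood at 6.47 and 6.69 in VC and 6.54 and 6.56 in TNF at 24 h and 48 h. TNFRSF1B (TNFR2, ENSG00000028137, chromosome 1, 12166991 to 12209228, plus strand) stood at 1.07 and 1.33 in VC and 1.404 and 1.66 in TNF. The libraries overlapped for TNFRSF1A, and its difference was -0.03 ± 0.068 (SE, limma, adjusted p = 0.806). For TNFRSF1B both TNF libraries lay above both VC libraries, and the difference of 0.33 ± 0.12 (SE, limma, adjusted p = 0.055) missed the threshold. TNFRSF1B was called higher in 3 of 11 alternative fits. The transcript of the cytokine itself, TNF (ENSG00000232810, chromosome 6, 31575565 to 31578336, plus strand), stood at 0.59 and 0.41 in VC and 2.37 and 3.16 in TNF and rose by 2.26 ± 0.17 (SE, limma, adjusted p = 2.10e-08).

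The largest rise was that of MMP9. MMP9, a gelatinase (ENSG00000100985, chromosome 20, 46008908 to 46016561, plus strand), stood at 1.15 and 1.31 in VC and 5.79 and 6.004 in TNF at 24 h and 48 h and rose by 4.67 ± 0.10 (SE, limma, adjusted p = 4.00e-15), a 25.4-fold change of CPM + 1. IL4I1, a secreted oxidase of aromatic amino acids (ENSG00000104951, chromosome 19, 49889654 to 49929539, minus strand), stood at 1.69 and 1.88 in VC and 5.95 and 6.295 in TNF and rose by 4.33 ± 0.10 (SE, limma, adjusted p = 4.00e-15). VCAM1, a ligand of leukocyte integrins (ENSG00000162692, chromosome 1, 100719742 to 100739045, plus strand), stood at 4.34 and 4.87 in VC and 8.95 and 8.54 in TNF and rose by 4.14 ± 0.13 (SE, limma, adjusted p = 3.25e-13). In each of these genes both VC libraries lay far below both TNF libraries. The other 12 of the 15 largest rises were ICAM1 (4.25), IL32 (4.24), CCL2 (4.07), CXCL1 (3.95), TNFRSF4 (3.899), FDCSP (3.71), BIRC3 (3.54), IL3RA (3.38), LTBP2 (3.36), IL34 (3.36), TNFAIP3 (3.29) and TNFRSF9 (3.29). FDCSP, a secreted peptide of follicular dendritic cells, was near the limit of the table in VC and reached 4.48 and 3.50 in TNF. All 15 kept their call in every alternative fit. The VC and TNF libraries overlapped in none of them, nor in 1647 of all 1776 genes called higher. The 15 were chosen by the size of their rise in these same libraries, so the lack of overlap adds no separate evidence.

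**Figure D2:**
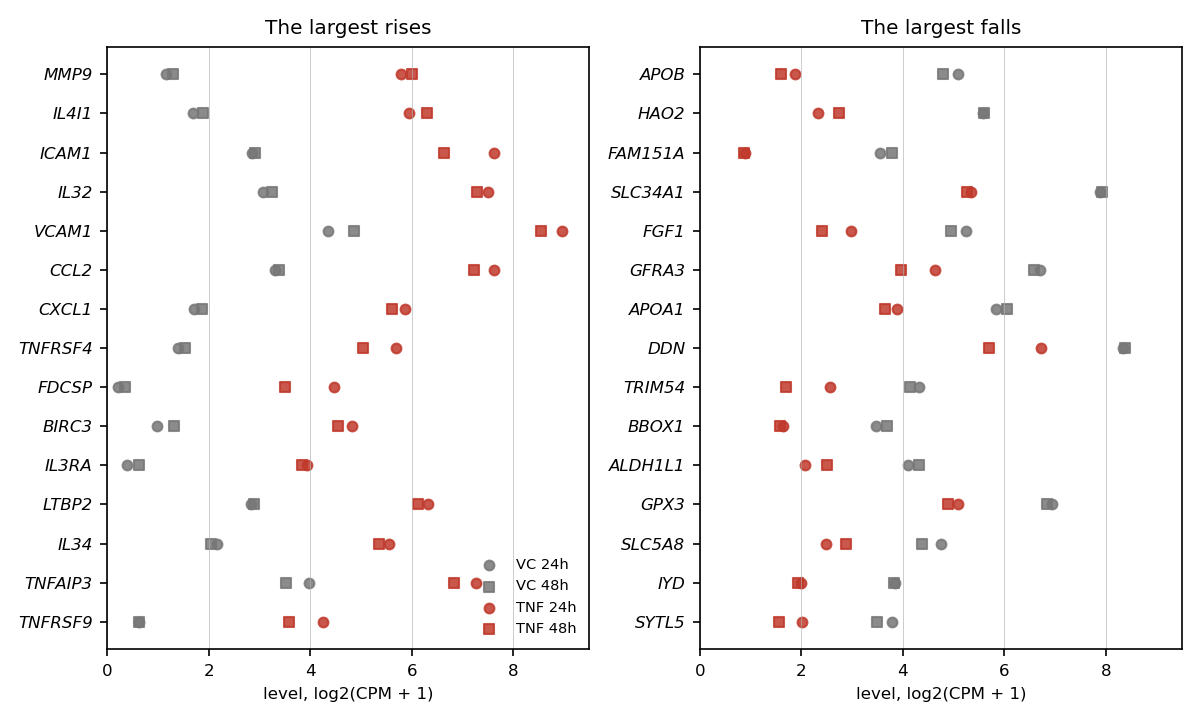
Levels in log2(CPM + 1) of the 15 largest rises (left) and 15 largest falls (right) in each of the 4 libraries, grey for VC, red for TNF, circles for 24 h and squares for 48 h. In all 30 genes, which were chosen by the size of their change in these libraries, both TNF libraries lie on the same side of both VC libraries. The same holds for most called genes.

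The starts of some of these genes carry the letters that NF-κB binds. The 250 bases before the RefSeq start of a gene are shown for 4 of the largest rises that hold the motif GGANTTNCC on either strand, in capitals, and then for the 2 largest that hold neither it nor the IRF (GAAANNGAA), STAT (TTCNNNGAA) or AP-1 (TGANTCA) motif in the 300 bases searched (250 before the start and 50 after). Sequences run 5′ to 3′ along the gene on GRCh38.p14.
ICAM1 (chr19:10270870-10271119, plus strand): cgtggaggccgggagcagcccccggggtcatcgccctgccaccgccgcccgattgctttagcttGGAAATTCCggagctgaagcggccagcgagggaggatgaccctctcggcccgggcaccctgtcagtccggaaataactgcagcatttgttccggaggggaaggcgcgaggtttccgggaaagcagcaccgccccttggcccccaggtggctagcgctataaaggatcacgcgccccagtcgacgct
IL32 (chr16:3065153-3065402, plus strand): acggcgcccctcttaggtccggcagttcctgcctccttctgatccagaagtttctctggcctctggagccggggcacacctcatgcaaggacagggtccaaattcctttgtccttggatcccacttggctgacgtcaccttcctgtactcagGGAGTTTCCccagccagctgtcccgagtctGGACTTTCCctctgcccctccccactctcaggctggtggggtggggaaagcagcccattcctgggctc
VCAM1 (chr1:100719492-100719741, plus strand): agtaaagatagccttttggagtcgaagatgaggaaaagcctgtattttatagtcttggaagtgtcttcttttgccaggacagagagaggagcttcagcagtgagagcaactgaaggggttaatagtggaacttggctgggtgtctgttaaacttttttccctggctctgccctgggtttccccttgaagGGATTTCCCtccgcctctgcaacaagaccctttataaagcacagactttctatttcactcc
CXCL1 (chr4:73869143-73869392, plus strand): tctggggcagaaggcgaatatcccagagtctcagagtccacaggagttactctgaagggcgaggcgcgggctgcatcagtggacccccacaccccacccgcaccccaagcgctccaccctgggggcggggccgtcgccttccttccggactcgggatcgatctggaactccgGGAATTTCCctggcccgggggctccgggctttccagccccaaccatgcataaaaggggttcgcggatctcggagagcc
IL4I1 (chr19:49929505-49929754, minus strand): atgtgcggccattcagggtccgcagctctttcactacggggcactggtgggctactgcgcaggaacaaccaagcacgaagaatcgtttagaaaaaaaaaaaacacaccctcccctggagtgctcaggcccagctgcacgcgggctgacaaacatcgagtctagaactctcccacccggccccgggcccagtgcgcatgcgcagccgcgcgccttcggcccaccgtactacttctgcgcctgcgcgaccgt
LTBP2 (chr14:74612238-74612487, minus strand): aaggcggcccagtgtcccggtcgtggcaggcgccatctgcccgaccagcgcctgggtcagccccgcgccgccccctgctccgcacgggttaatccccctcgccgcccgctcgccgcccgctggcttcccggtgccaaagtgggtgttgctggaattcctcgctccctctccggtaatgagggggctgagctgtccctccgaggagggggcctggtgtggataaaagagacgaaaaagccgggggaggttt
The motif began 186 bases before the start in ICAM1, 98 in IL32, where a second copy follows, 61 in VCAM1 and 78 in CXCL1. The motifs can overlap one another, as their letters allow shared bases. Which start of a gene was in use in these libraries was not examined, so a missing motif holds for the bases searched only.

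RefSeq promoters matched 13669 of the tested genes. The NF-κB letters stood in 4.31% of these, in 8.18% of the 1321 matched genes that rose and in 3.06% of the 1603 that fell. Among matched genes that rose by at least 1 the share was 24.1% (41 of 170), and among those that fell by at least 1 it was 1.85% (2 of 108). Of the 15 largest rises 10 were matched and 7 held the motif, and of the 15 largest falls 11 were matched and 0 did. The IRF letters stood in 6.51% of tested promoters and 12.9% of those that rose by at least 1. For the STAT letters the shares were 6.47% and 9.41%, and for the AP-1 letters 4.73% and 7.65%. Across all 27305 RefSeq promoters the NF-κB letters stood in 4.23%, the IRF letters in 8.29%, the STAT letters in 7.88% and the AP-1 letters in 7.76%. These are matches of letters, given with no test.

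NF-κB subunits and inhibitors moved together. In that list 11 of 12 listed genes rose and 0 fell, with a median difference of 0.97 against -0.03 over all tested genes. All 5 subunits rose, led by RELB of the non-canonical dimer (2.87) and NFKB2 (2.26), and RELA rose least (0.25), a call lost with any 1 library left out. All 6 inhibitors and IκB-like cofactors rose, with NFKBIA at 5.95 and 5.65 in VC and 8.54 and 7.998 in TNF (2.47) and BCL3 at 2.11. MAP3K14, the kinase of the non-canonical arm, was the member not called. In the receptor complex 11 of 26 listed genes rose and 1 fell. The 4 genes grouped as feedback adaptors, among them the kinase MAP3K8, all rose. Of the 11 genes grouped as adaptors or kinases 3 rose and 1 fell. BIRC3, a ubiquitin ligase, stood at 0.98 and 1.32 in VC and 4.82 and 4.56 in TNF and rose by 3.54 ± 0.14. TNFAIP3, the A20 ubiquitin editor, rose by 3.29 ± 0.072, and its partner TNIP1 by 1.14 ± 0.063. MAP3K8 rose by 1.14 ± 0.09, a call lost with any library but TNF 48h left out.

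Receptors of the wider TNF family rose beside the pathway itself. This family, and the others named below as added, were chosen after their values were seen. Among 18 receptors with a TNFRSF symbol 12 rose and 0 fell, and the median was 0.42. TNFRSF4 (OX40), a costimulatory receptor known from T cells, stood at 1.395 and 1.53 in VC and 5.69 and 5.04 in TNF and rose by 3.899 ± 0.14 (SE, limma, adjusted p = 2.04e-12). TNFRSF9 (4-1BB), another T cell costimulator, stood at 0.63 and 0.63 in VC and 4.25 and 3.58 in TNF and rose by 3.29 ± 0.15. TNFRSF18 (GITR) stood at 1.28 and 1.29 in VC and 4.56 and 3.89 in TNF and rose by 2.94 ± 0.14 (SE, limma, adjusted p = 9.15e-11). None of the 3 overlapped between VC and TNF, which holds for most called genes. PTPRC, the common leukocyte gene, is not among the genes listed. TNFRSF14 (HVEM) rose by 1.74 ± 0.12 and TNFRSF11A (RANK) by 1.02 ± 0.11. The death receptor TNFRSF10B rose by 0.78 ± 0.061. TNFRSF25, TNFRSF13C, TNFRSF10C and TNFRSF8 were not called, with differences of -0.198, 0.19, -0.00082 and -0.14. In the TNF family ligands LTB stood at 1.27 and 1.12 in VC and 4.13 and 3.35 in TNF and rose by 2.55 ± 0.14 (SE, limma, adjusted p = 5.58e-10).

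Every chemokine that the table lists rose with TNFα. That is 13 of 13, with a median of 1.54, while 12 further members are not listed. CCL2, which draws monocytes, stood at 3.32 and 3.39 in VC and 7.62 and 7.23 in TNF and rose by 4.07 ± 0.092 (SE, limma, adjusted p = 4.36e-15). CXCL1, a neutrophil chemokine, stood at 1.71 and 1.86 in VC and 5.86 and 5.62 in TNF and rose by 3.95 ± 0.11. CXCL10 stood at 0.19 and 0.299 in VC and 3.66 and 3.21 in TNF, near the lower limit in both VC libraries, and rose by 3.196 ± 0.14. CXCL6 rose by 3.12 ± 0.12, CXCL5 by 1.79 ± 0.12 and CXCL14 by 1.76 ± 0.075, and the smallest rise was that of CXCL12 (0.27 ± 0.079), a call lost with any 1 library left out. The calls of 8 of the 13 held with each library left out.

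Cytokines and their receptors followed. Among inflammatory cytokines 10 of 15 listed genes rose and 0 fell, and among cytokine receptors 10 of 16 listed genes rose and 0 fell. IL32, an inducer of other cytokines, stood at 3.07 and 3.25 in VC and 7.502 and 7.29 in TNF and rose by 4.24 ± 0.088. IL34 and CSF1, both ligands of the macrophage receptor CSF1R, rose by 3.36 ± 0.10 and 1.79 ± 0.086. IL15, a growth factor of natural killer cells, stood at 0.44 and 0.61 in VC and 1.69 and 1.79 in TNF and rose by 1.21 ± 0.11. IL18 and IL33 were not called (0.003 and 0.03). On the receptor side IL3RA stood at 0.38 and 0.63 in VC and 3.94 and 3.84 in TNF and rose by 3.38 ± 0.13, and CSF2RB, the signalling chain that pairs with it, stood at 1.97 and 1.95 in VC and 3.68 and 3.198 in TNF and rose by 1.48 ± 0.13. OSMR and IL18R1 rose by 1.04 and 0.84, calls lost in 2 and 4 of 11 alternative fits. Of the leukocyte adhesion molecules 8 of 16 rose and 2 fell. ICAM1 stood at 2.85 and 2.91 in VC and 7.63 and 6.63 in TNF, so its TNF level was higher at 24 h than at 48 h, and JAM2, ICAM5 and MADCAM1 rose by 1.35, 1.12 and 1.06.

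Most genes of antigen presentation by MHC class I rose. In the list 16 of 19 listed genes rose and 0 fell, with a median of 0.72, and 9 of the 16 calls held with each library left out. HLA-B, a heavy chain, stood at 3.94 and 3.96 in VC and 6.88 and 6.69 in TNF and rose by 2.84 ± 0.077 (SE, limma, adjusted p = 3.97e-14). The light chain B2M stood at 6.697 and 6.69 in VC and 7.903 and 7.71 in TNF and rose by 1.11 ± 0.065. TAP1, the peptide transporter, stood at 2.94 and 3.02 in VC and 5.59 and 5.32 in TNF and rose by 2.48 ± 0.10, with TAPBP at 1.25 ± 0.07 and the trimming enzyme ERAP2 at 1.47 ± 0.14. All 4 listed immunoproteasome genes rose, led by PSMB8 (1.38 ± 0.092). HLA genes resemble each other, so the split of reads between them is uncertain. In the class II and costimulation list 7 of 13 listed genes rose and 0 fell. CD74, the class II invariant chain, stood at 5.97 and 6.098 in VC and 7.51 and 7.48 in TNF and rose by 1.46 ± 0.065, and CD40 stood at 0.91 and 1.08 in VC and 2.88 and 2.52 in TNF and rose by 1.71 ± 0.14. CIITA, the master factor of class II genes, was near the lower limit and not called (0.11).

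About as many interferon-type genes rose as were not called. In the list 23 of 44 listed genes rose and 2 fell, with a median of 0.31, and 8 of the 25 calls held with each library left out. The guanylate-binding proteins GBP4 and GBP3 rose by 1.96 ± 0.13 and 1.56 ± 0.12. IRF8, a transcription factor known from myeloid cells, stood at 1.09 and 1.31 in VC and 3.04 and 3.01 in TNF and rose by 1.82 ± 0.12. OAS3, a sensor of double-stranded RNA, rose by 1.44 ± 0.11. IRF1 stood at 4.22 and 4.14 in VC and 6.17 and 5.14 in TNF and rose by 1.47 ± 0.14, a call lost without VC 24h or without VC 48h. IFIT1, a classic target of type I interferon, went the other way, from 3.50 and 3.45 in VC to 2.73 and 2.64 in TNF, and fell by 0.79, a call lost with any 1 library left out. ISG15 was not called (0.09). Among pattern sensors 8 of 22 listed genes rose and 0 fell, led by the RNA sensor IFIH1 (1.03 ± 0.11). TLR2 (0.94), TLR5 (0.85) and IRAK2 (0.77) each lost their call in 3 of 11 alternative fits, and STING1 (0.63) in 4.

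Complement genes moved both ways. C3, the central component, stood at 2.32 and 2.25 in VC and 5.85 and 4.98 in TNF and rose by 3.13 ± 0.14 (SE, limma, adjusted p = 2.08e-11). The proteases of the classical pathway rose as well, C1S by 1.18 ± 0.082 and C1R by 0.83 ± 0.084, the latter call lost without VC 48h. C6, a component of the membrane attack complex, stood at 4.12 and 3.999 in VC and 3.11 and 3.03 in TNF and fell by 0.99, a call lost without VC 24h. In all 5 of 20 listed genes rose and 4 fell (25% and 20%, beside 8.42% and 10.8% of all tested genes). Among acute phase genes FGB, a fibrinogen chain, fell by 1.53, while PTX3 rose by 1.04 ± 0.14, a call held only without TNF 48h.

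The enzymes of prostaglandin synthesis rose at successive steps. In the list 5 of 11 listed genes rose and 1 fell. PTGS1, the cyclooxygenase often called constitutive, stood at 4.75 and 4.81 in VC and 7.26 and 7.399 in TNF and rose by 2.55 ± 0.067 (SE, limma, adjusted p = 2.85e-14). PTGS2, the inducible cyclooxygenase, stood at 0.83 and 0.79 in VC and 3.54 and 2.97 in TNF and rose by 2.44 ± 0.14. PTGES, which makes prostaglandin E2, stood at 1.798 and 2.02 in VC and 4.38 and 4.196 in TNF and rose by 2.38 ± 0.12. All 3 kept their call with each library left out. Prostanoid receptors, an added family, were divided, with 3 of 8 higher and 3 lower. PTGER4 stood at 4.88 and 4.58 in VC and 6.73 and 6.31 in TNF and rose by 1.79 ± 0.072, and PTGIR and TBXA2R rose by 1.66 ± 0.13 and 1.13 ± 0.12. PTGER1 (-0.55), PTGER2 (-0.37) and PTGER3 (-0.36) fell, calls lost with any 1 library left out. In tryptophan breakdown TDO2, the first enzyme, rose by 1.197 ± 0.13, and KMO, a later one, fell by 0.91.

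Matrix genes rose in part. In the list of fibrillar collagens and crosslinking 16 of 29 listed genes rose and 1 fell, and of 8 crosslinking enzymes 6 rose. LOXL4, LOXL2 and LOXL1, lysyl oxidases that crosslink collagen, rose by 1.298, 1.28 and 0.77. COL12A1, a fibril-associated collagen, stood at 5.999 and 5.801 in VC and 7.37 and 7.06 in TNF and rose by 1.31 ± 0.065 (SE, limma, adjusted p = 1.07e-10). Over all 42 collagen chains listed, an added family, 18 rose and 6 fell. COL7A1, the chain of anchoring fibrils, stood at 6.51 and 6.04 in VC and 9.01 and 8.57 in TNF and rose by 2.52 ± 0.06 (SE, limma, adjusted p = 7.84e-15). COL22A1, known from tissue junctions, stood at 5.04 and 4.97 in VC and 7.75 and 7.65 in TNF and rose by 2.69 ± 0.065, and COL9A1, COL11A2 and COL16A1 rose by 1.55, 1.34 and 0.996. All 24 called chains had the same direction in the single-cell libraries described at the end. Basement membrane genes were divided (7 of 22 listed genes rose and 5 fell). COL4A1, a chain of the collagen network found in most basement membranes, stood at 9.25 and 9.197 in VC and 9.86 and 9.81 in TNF and rose by 0.61 ± 0.062. NID2 fell by 0.705 and COL4A4, of the glomerular basement membrane, fell by 0.66, calls lost without TNF 24h or without VC 48h, and for COL4A4 also without VC 24h.

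Matrix proteases and inhibitors were divided, with 10 of 28 listed genes higher and 6 lower. Of 6 cathepsins 1 rose and 3 fell. The riser was CTSS, the cathepsin that trims the invariant chain. It stood at 0.91 and 0.95 in VC and 3.700 and 3.48 in TNF and rose by 2.66 ± 0.12. MMP7 rose by 1.72 ± 0.065. LTBP2, a matrix protein related to the binders of latent TGF-beta, stood at 2.83 and 2.89 in VC and 6.32 and 6.12 in TNF and rose by 3.36 ± 0.091 (SE, limma, adjusted p = 3.79e-14). In the same TGF-beta and BMP list 12 of 40 genes rose and 6 fell, with a median of 0.06. The coreceptor TGFBR3 stood at 8.73 and 8.301 in VC and 7.62 and 6.87 in TNF and fell by 1.27, a call lost without VC 24h, and the ligand GDF10 fell by 1.07. The Wnt list was even, with 9 of 41 higher and 9 lower. Of 11 listed secreted modulators of Wnt 4 rose and 3 fell, with a median of -0.14. The antagonists SFRP4 and NOTUM rose by 1.62 ± 0.10 and 1.26 ± 0.10. SFRP2 was lower, with a difference of -0.896 and a call lost in 4 of 11 alternative fits. MGP, an inhibitor of calcification, stood at 2.04 and 2.095 in VC and 3.42 and 3.77 in TNF and rose by 1.53 ± 0.12.

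Growth factors changed in both directions as well, with 9 of 42 higher and 12 lower (21.4% and 28.6%, beside 8.42% and 10.8% of all tested genes). HBEGF, a ligand of the EGF receptor, stood at 4.35 and 3.21 in VC and 6.44 and 5.61 in TNF and rose by 2.24 ± 0.087, a call lost without TNF 24h. Its receptor EGFR stood at 5.74 and 5.81 in VC and 6.99 and 6.83 in TNF and rose by 1.13 ± 0.071 (SE, limma, adjusted p = 2.50e-09). HGF, the ligand of MET, rose by 1.44 ± 0.12. FGF1 (ENSG00000113578, chromosome 5, 142592178 to 142698070, minus strand) stood at 5.25 and 4.94 in VC and 2.98 and 2.41 in TNF with a difference of -2.400 ± 0.10 (SE, limma, adjusted p = 1.17e-11). ITGB6 rose by 1.07 ± 0.09, a call lost without TNF 24h, and ITGA3, a laminin receptor of podocytes and tubules, fell by 0.82.

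The largest fall was that of APOB. APOB, the core protein of large lipoproteins (ENSG00000084674, chromosome 2, 21001429 to 21044073, minus strand), stood at 5.09 and 4.797 in VC and 1.87 and 1.59 in TNF at 24 h and 48 h and fell by 3.21 ± 0.11 (SE, limma, adjusted p = 5.90e-13). HAO2, a peroxisomal oxidase of hydroxy acids (ENSG00000116882, chromosome 1, 119368779 to 119394130, plus strand), stood at 5.58 and 5.595 in VC and 2.33 and 2.75 in TNF and fell by 3.05. SLC34A1, the phosphate transporter of the brush border (ENSG00000131183, chromosome 5, 177379235 to 177398848, plus strand), stood at 7.89 and 7.93 in VC and 5.35 and 5.26 in TNF and fell by 2.605 ± 0.065 (SE, limma, adjusted p = 1.30e-14). In each of these genes both TNF libraries lay far below both VC libraries. The next falls were those of FAM151A (-2.795), GFRA3 (-2.35), APOA1 (-2.17), DDN (-2.16), TRIM54 (-2.099), BBOX1 (-1.97), ALDH1L1 (-1.92), GPX3 (-1.91), SLC5A8 (-1.88), IYD (-1.87) and SYTL5 (-1.86). BBOX1 makes carnitine, ALDH1L1 handles folate, IYD recovers iodide and SLC5A8 carries monocarboxylates. With FGF1 these are the 15 largest falls, and all kept their call in every alternative fit.

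The proximal tubule is the segment that reclaims most of the filtered solute. Across its list 1 of 31 listed genes rose and 26 fell, with a median of -0.77. The summed level of the 31 listed markers was 2286 and 2167 CPM in VC and 1211 and 1253 CPM in TNF. In bulk RNA, fewer cells of a type and less RNA per cell cannot be told apart. All 4 transcription factors fell, with HNF4A at 6.27 and 6.604 in VC and 5.02 and 5.65 in TNF and a difference of -1.105, a call lost without VC 48h. All 4 genes grouped as endocytic receptors fell, namely CUBN (-1.09), AMN (-0.99), the adaptor DAB2 (-0.83) and LRP2 (-0.25), the last call lost with any 1 library left out. Of 15 transporters 12 fell and 1 rose, and SLC47A1, SLC5A12 and SLC22A8 had differences of -1.58, -1.39 and -1.38. The brush border peptidase ANPEP stood at 4.41 and 4.53 in VC and 2.804 and 3.25 in TNF and fell by 1.45, while the water channel AQP1 was not called (-0.31). The calls of 11 of the 27 held with each library left out.

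Metabolic enzymes were counted next. Of 29 listed enzymes of amino acid and one-carbon metabolism, an added list, 20 fell and 0 rose, and the median was -0.95. BHMT, which remethylates homocysteine, stood at 7.08 and 7.13 in VC and 5.39 and 5.39 in TNF and fell by 1.71 ± 0.065 (SE, limma, adjusted p = 3.25e-12). GLYAT and GLYATL1, which conjugate acids with glycine, had differences of -1.46 and -1.35, AGXT2 of -1.45 and GATM, the first enzyme of creatine synthesis, of -0.95. In gluconeogenesis and fatty acid handling, also added, 13 of 21 fell and 1 rose. FBP1 fell by 1.51 and PC, pyruvate carboxylase, fell by 1.28, while PCK1 and PCK2 were not called (-0.25 and -0.08). Of 13 scaffold genes of microvilli, an added list as well, 11 fell and 0 rose. CDHR5, a protocadherin that links microvilli, stood at 6.13 and 6.21 in VC and 4.61 and 4.38 in TNF and fell by 1.67, and the actin bundler VIL1 and the scaffolds PDZK1 and NHERF1 had differences of -1.12, -1.05 and -0.93. Over all 309 solute carriers listed 44 rose and 67 fell (14.2% and 21.7%, beside 8.42% and 10.8% of all tested genes).

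Podocyte genes were lower at both times. In that list 0 of 27 listed genes rose and 23 fell, and the median difference was -0.57 at 24 h and -0.88 at 48 h. The difference between the times was not tested. Summed over 27 markers the level was 12966 and 12051 CPM in VC and 9014 and 7262 CPM in TNF. SEMA3G, a secreted semaphorin, stood at 6.75 and 6.46 in VC and 5.13 and 4.51 in TNF and fell by 1.78, and THSD7A fell by 1.44. DDN (dendrin) stood at 8.34 and 8.38 in VC and 6.72 and 5.69 in TNF, so the TNF level was lower at 48 h than at 24 h. All 7 transcription factors fell, most of all FOXD1 (-1.14) and TCF21 (-1.11). TCF21 is also in the fibroblast list below, so its fall is not particular to podocyte markers. WT1 fell by 0.55, a call lost without VC 24h or without TNF 48h. KIRREL1, CD2AP, FAT1 and ACTN4 were not called (0.06, -0.03, -0.11 and -0.098). In 9 of the 23 the call held with each library left out.

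Metallothioneins, which bind zinc and copper, fell in 6 of 7 listed genes, with a median of -0.61. MT1H stood at 4.66 and 5.097 in VC and 3.88 and 3.62 in TNF and fell by 1.13, and MT1G stood at 6.54 and 6.71 in VC and 5.96 and 5.38 in TNF and fell by 0.96. The call of MT1H held with each library left out, while that of MT1G was lost without VC 48h and that of the other 4 in more than 1 such fit. Their sequences are near copies of each other, so reads may be split between them. GPX3, a secreted peroxidase of the tubule, stood at 6.95 and 6.84 in VC and 5.09 and 4.88 in TNF and fell by 1.91, and HMOX1, an enzyme of heme breakdown, fell by 1.302. In the antioxidant list, which holds both, 2 of 20 rose and 3 fell (10% and 15%), near the 8.42% and 10.8% of all tested genes.

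Markers of other cell types were measured beside these. The immune cell list had 9 of 22 members listed, of which 1 rose and 3 fell, and their summed level was 32.6 and 35 CPM in VC and 31.4 and 26.6 CPM in TNF. PTPRC is not listed, the macrophage gene CD14 stood at 0.36 and 0.32 in VC and 0.39 and 0.35 in TNF, and LCP1 rose by 1.78 ± 0.18. Endothelial markers fell in 6 of 16 and rose in 0, and their summed level was 247 and 260 CPM in VC and 214 and 204 CPM in TNF. Part of that sum is CLDN5, 1 of the 6, at 6.08 and 6.40 in VC and 5.75 and 5.39 in TNF. CLDN5 is also in the tight junction list, so its fall is not particular to endothelial markers. Each of these 6 calls was lost in at least 2 fits with 1 library left out. Contractile and mural markers rose in 8 of 14 and fell in 2, with RGS5 at 1.61 and MYH11 at 1.67 holding in every such fit. Their sum was 1168 and 1238 CPM in VC and 1392 and 1310 CPM in TNF. Fibroblast markers summed to 3947 and 4778 CPM in VC and 4506 and 4488 CPM in TNF, with 1 of 10 higher and 3 lower. For neurons the sum was 906 and 990 CPM in VC and 782 and 1165 CPM in TNF, with 5 of 17 higher and 2 lower, and for skeletal muscle 197 and 272 CPM in VC and 161 and 223 CPM in TNF, with 0 of 19 higher and 4 lower. Neural progenitor and glial markers summed to 2488 and 2608 CPM in VC and 2997 and 2869 CPM in TNF, with 6 of 14 higher and 3 lower. None of the calls for neurons, glia or muscle held in all 4 fits with 1 library left out. The part of these cells in the results above was not tested.

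Further along the nephron the distal list was mixed, with 4 of 22 higher and 7 lower, none held with each library left out. Tubule injury markers rose in 7 of 15 and fell in 1. KRT17, a keratin of stressed epithelia, stood at 1.901 and 1.74 in VC and 4.16 and 4.31 in TNF and rose by 2.42 ± 0.12 (SE, limma, adjusted p = 1.02e-10), SOX9 by 1.03 ± 0.11, a call held only without VC 48h, and CDKN1A by 0.98 ± 0.094. HAVCR1, which encodes the injury marker KIM-1, was not called (0.18). Tight junction genes fell in 8 of 19 and rose in 1. In the apolipoprotein list 3 of 11 rose and 4 fell, and APOL1 and APOL6 rose by 1.395 ± 0.12 and 1.25 ± 0.12, the latter call lost without TNF 24h.

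Death and survival genes rose in 9 of 22 and fell in 2. The p53 targets PMAIP1 (NOXA) and BBC3 (PUMA), which promote apoptosis, rose by 1.38 ± 0.12 and 1.21 ± 0.10, and FAS by 1.11 ± 0.12, a call lost without TNF 24h or without VC 48h. In glycolysis and hypoxia 14 of 29 listed genes rose and 3 fell. SLC2A6 and SLC2A1, glucose transporters, rose by 1.39 ± 0.12 and 0.89 ± 0.064, while the hypoxia gene NDRG1 fell by 0.66.

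Several basic programmes stayed near or below the background shares of 8.42% and 10.8%. For cell cycle genes the median difference was -0.244 at 24 h and 0.0615 at 48 h, signs that the fit over both times averages. Cell cycle genes rose in 3 of 37 and fell in 2, nuclear genes of oxidative phosphorylation rose in 0 of 38 and fell in 2, cholesterol synthesis rose in 2 of 20 and fell in 1, and the unfolded protein response rose in 1 of 18 and fell in 1. Ribosomal protein genes differed by little but in 1 direction, with 11 of 34 higher and a median of 0.18, and none of these calls held with each library left out. A p above the threshold does not show that the other genes were equal.

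Among immediate early genes, FOS and FOSB differed more between the times than with TNFα. FOS, a subunit of AP-1, stood at 7.03 and 9.23 in VC and 5.402 and 9.15 in TNF at 24 h and 48 h, and FOSB at 3.098 and 6.94 in VC and 1.86 and 6.66 in TNF. Both 48 h libraries lay far above both 24 h libraries, and the summed level of the 20 listed genes was 1392 and 3335 CPM in VC and 1543 and 3554 CPM in TNF. FOS and FOSB were called lower in the fit with time (-0.86 and -0.76), with differences within a time of -1.63 at 24 h and -0.082 at 48 h for FOS and of -1.24 and -0.28 for FOSB. In the fits with no time term, which set unequal numbers of 24 h and 48 h libraries against each other, the difference of FOS was 1.02 without TNF 24h and 0.24 without VC 48h, and those of FOSB were 1.64 and 1.16. JUNB stood at 6.09 and 8.07 in VC and 7.29 and 8.69 in TNF and was called higher (0.91), with differences within a time of 1.199 and 0.62, and of -0.08 in the fit without VC 24h and without the time term. IER3 and MYC rose by 1.16 ± 0.074 and 0.97 ± 0.072 and kept their calls with each library left out.

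**Figure D3:**
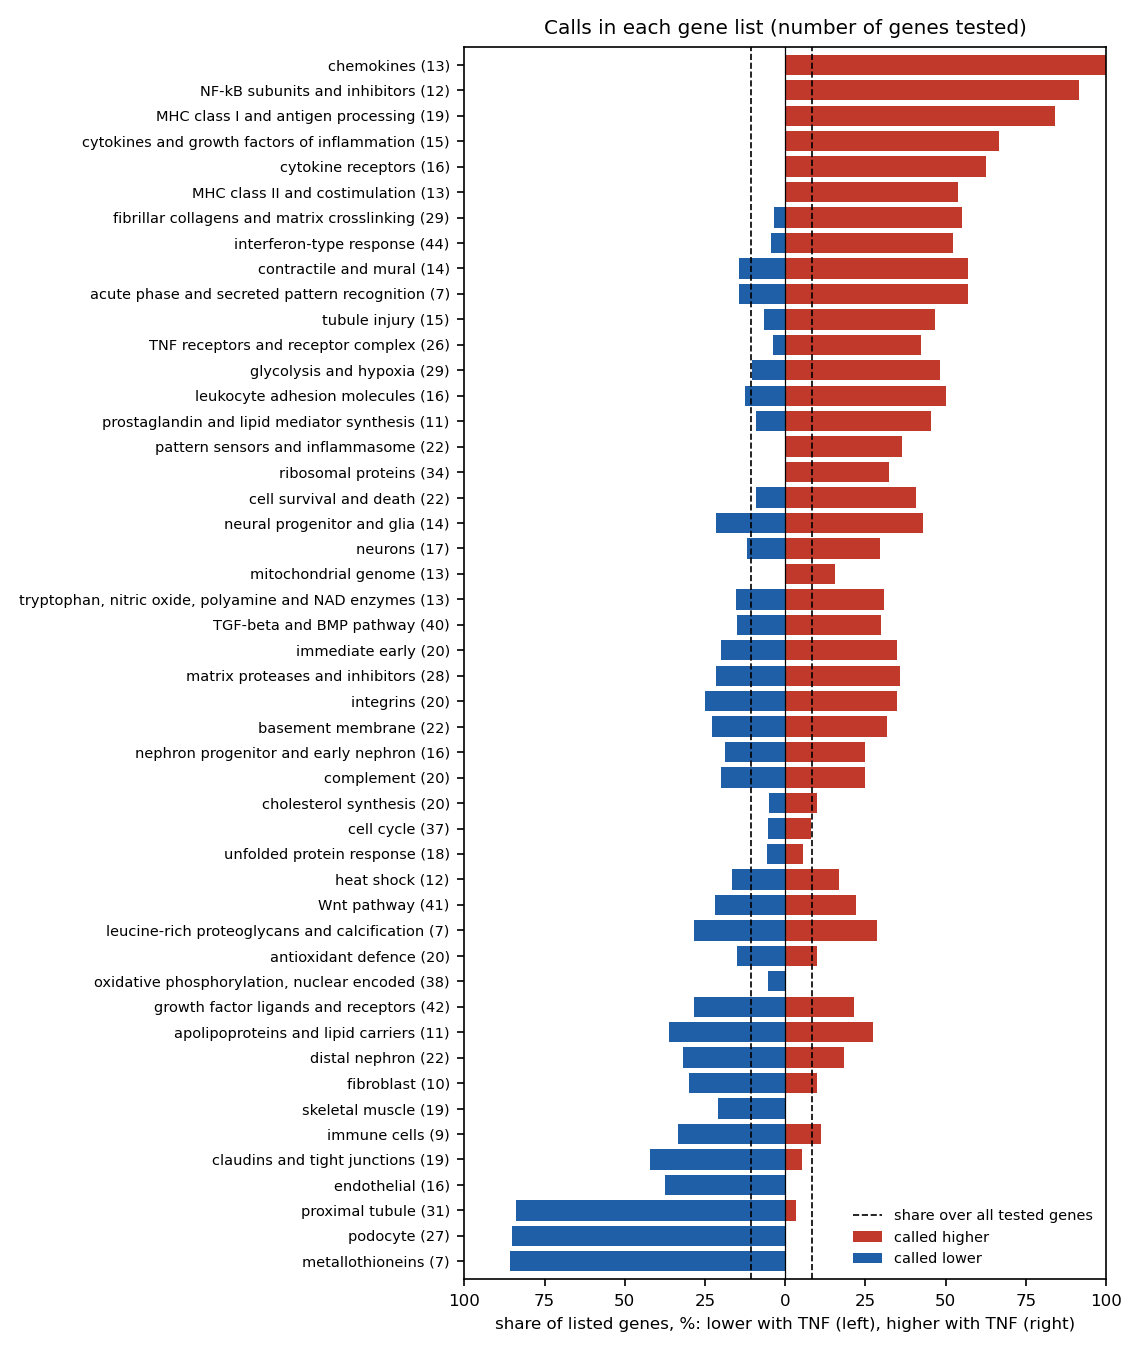
Share of the listed genes of each gene list called higher (red, right) and lower (blue, left) with TNF, in percent, with the number of genes tested in brackets. Dashed lines mark the shares over all tested genes, 8.42% higher and 10.8% lower. Chemokines and NF-κB genes reach furthest to the right, and metallothioneins, podocyte and proximal tubule genes furthest to the left.

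Host genes of microRNAs were also in the table, 39 of them, of which 4 rose and 7 fell, beside 8.42% and 10.8% of all tested genes. The falls of MIR124-2HG (-0.73) and MIR1915HG (-0.58) were the largest. MIR3142HG, whose transcript holds the miR-146a precursor, stood at 0.44 and 0.54 in VC and 1.09 and 1.17 in TNF and rose by 0.64 ± 0.11 (SE, limma, adjusted p = 2.95e-04). MIR34AHG stood at 1.58 and 1.43 in VC and 2.499 and 2.27 in TNF and rose by 0.88 ± 0.12 (SE, limma, adjusted p = 3.59e-05). MiR-146a is known as a brake on NF-κB signalling and miR-34a as a target of p53. The mature forms, from RefSeq on GRCh38.p14, are shown because these hosts rose, with the seed (bases 2 to 8) in capitals.
hsa-miR-146a-5p (chr5:160485372-160485393, plus strand): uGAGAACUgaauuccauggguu
hsa-miR-34a-5p (chr1:9151735-9151756, minus strand): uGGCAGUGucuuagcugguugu
The seeds differ, and mature microRNAs were not measured. The call of MIR3142HG was lost with any 1 library left out, and that of MIR34AHG with any but TNF 48h. These host genes were chosen after their values were seen.

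A pair of single-cell libraries of the series gave a separate look at the same treatment. These are day 24 organoids, 1 library of VC (11906 cells with over 500 genes, median 6358.5 UMIs) and 1 of TNFα for 24 h (23160 cells, median 2599 UMIs). The methods give whole-well cultures as the source of the single cells and isolated spheroids as that of the bulk RNA, so the material differs. The single-cell libraries share 74 cell barcodes, and no doublets were called or removed for the sums given here. UMIs were summed over all cells of a library, so a ratio compares CPM of the sums, there is no replicate and no test, and its 95% interval covers counting error only. Over the 17508 genes with at least 50 UMIs, 37.8% were higher in TNF. Of the 1670 such genes that rose in bulk 76.5% were higher, and of the 2097 that fell 83.7% were lower. Among those with a bulk change of at least 1, 97.3% of 221 risers were higher and 97.2% of 144 fallers were lower.

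Single genes are given by their summed UMIs. CCL2 had 3108 UMIs in VC and 112540 in TNF, a ratio of 40 (38.6 to 41.4). FDCSP had 49 UMIs in VC and 21674 in TNF, a ratio of 488 (369 to 660). TNFRSF4 had 224 UMIs in VC and 9090 in TNF, a ratio of 44.8 (39.2 to 51.4), and TNFRSF18 a ratio of 13.2 (11.7 to 15). SLC34A1 had 963 UMIs in VC and 198 in TNF, a ratio of 0.227 (0.194 to 0.265), and BHMT a ratio of 0.322 (0.282 to 0.368). All 13 chemokines, all 16 MHC class I genes, all 6 metallothioneins and all 19 amino acid and one-carbon enzymes that were called and had enough UMIs kept their bulk direction. Agreement was lower in others, with 7 of 10 TNFRSF receptors and 21 of 25 interferon-type genes keeping theirs. For glycolysis and hypoxia it was 10 of 17, and for matrix proteases and inhibitors 9 of 16. Of the 23 podocyte genes that fell in bulk 9 were lower in the summed cells and 14 were higher. SEMA3G had a ratio of 0.571 (0.5 to 0.65), whereas NPHS1 was at 1.05 (1.01 to 1.08), PODXL at 0.995 (0.978 to 1.01) and FOXC1 at 1.36 (1.32 to 1.4). FOXD1 was at 0.967 (0.928 to 1.01), an interval that includes 1, and TCF21 at 0.822 (0.805 to 0.839). MMP7, which rose in bulk, was at 0.706 (0.679 to 0.734). Of the 6 endothelial genes that fell in bulk 3 were lower in the summed cells and 3 were higher, with CLDN5 at 1.05 (1.02 to 1.08). In the VC single-cell library CLDN5 had 10783 UMIs, beside 875 for KDR, 122 for FLT1, 59 for CDH5 and 30 for PECAM1. The 7 called neuronal genes were all lower in the single-cell TNF library, although 5 of them were higher in bulk. The share of each cell type in a library, its dissociation and its depth enter these ratios. Whole wells also stand here against the isolated spheroids of the bulk libraries. The part of each was not tested.

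**Figure D4:**
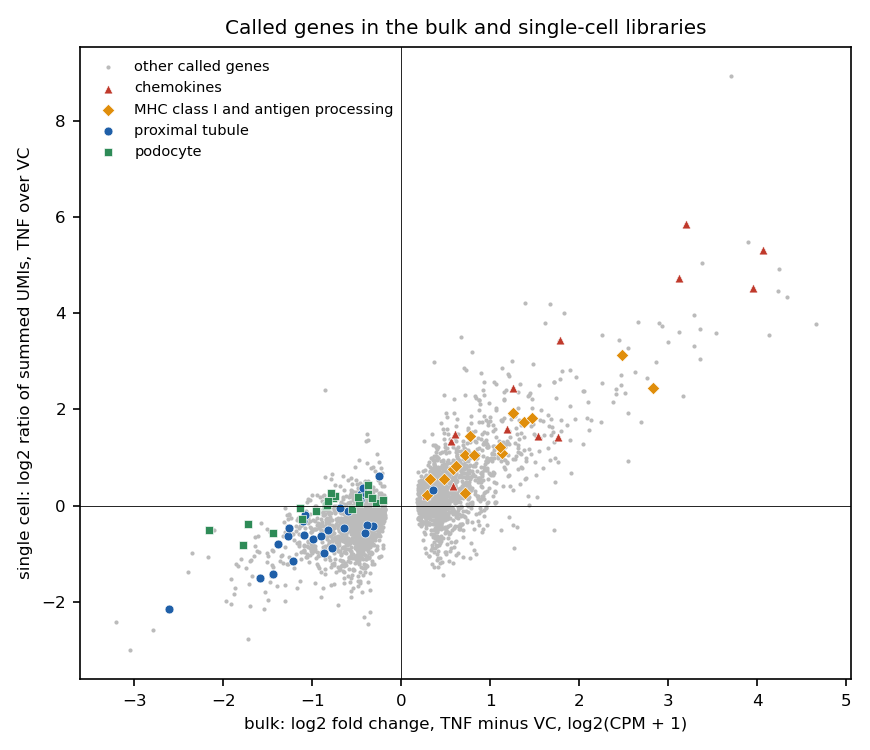
Called genes with at least 50 UMIs, by bulk log2 fold change (horizontal, TNF minus VC in log2(CPM + 1)) and log2 ratio of the CPM of summed UMIs, TNF over VC (vertical), 1 library each. Chemokines and MHC class I genes lie above 0 in both, most of the 26 called proximal tubule genes below 0 in both, and podocyte genes on either side of 0 in the single cells.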

How the data were processed

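RNA of 4 organoid libraries was analysed from processed values. For the log2 values, the authors aligned reads to GRCh38 with STAR 2.7.8a, counted with HTSeq 0.11 (per the labels), applied voom and deposited a table from which low genes are absent (their threshold was not stated). Each value is log2 of CPM + 1, where 0.5 was put onto every read count first, and whole reads came back for 100% of values. Of 84372 values 2 were 0 reads, so genes silent in 1 library are mostly outside the table. Symbols and positions came from GENCODE 44 (21047 of 21093 genes), and 39 further symbols from the single-cell feature table. The single-cell UMI counts were deposited by the authors without normalization.

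Treatment was tested with limma 3.58.1 (R 4.3.3), with time as a term, eBayes with a trend and Benjamini-Hochberg adjustment over 21093 genes (1 residual degree of freedom, two-sided). On simulated reads of this comparison (21093 genes) it called 100 of 100 genes changed 2-fold, 100 of 100 changed 4-fold and 7 unchanged ones. These reads had the same low dispersion for every gene, no effect of time and no added variation between libraries. The changed genes were drawn from the better expressed ones. The simulation therefore does not give the error rate of the calls above. Alternatives were edgeR 4.0.16, DESeq2 1.42.0, other scalings and filters, no time term, and each library left out with the time term dropped. The 48 gene lists, the comparison and the motifs were chosen with earlier results of these data known. Named are the 15 largest rises and falls (called, same sign at both times, mean of at least 1), up to 5 called genes per list, the receptors and TNF, and genes singled out after their values were seen. Genes without a symbol and sex-chromosome genes outside X were not named. The text prints a part of the genes that the rule names, and some are not reported here. Bulk tables were normalized separately and no level is compared across them. Fold intervals are exact given the summed count (95%). Python 3.11.15, pandas 2.3.3, scipy 1.17.1 and matplotlib 3.10.9 were used.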

Additional observations from a re-analysis of the deposited data

Results flagged for a closer look

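Some values had opposite signs at 24 h and 48 h. With 1 library per treatment and time, none of these differences between the times was tested. The median TNF minus VC difference of the list on log2(CPM + 1) was -0.244 at 24 h and 0.0615 at 48 h for cell cycle genes, -0.0447 and 0.192 for neuronal markers, -0.0025 and 0.226 for nephron progenitor and early nephron genes, and 0.0089 and -0.233 for fibroblast markers. It was 0.157 and -0.0233 for cholesterol synthesis, -0.0211 and 0.132 for the TGF-beta and BMP pathway, and 0.0628 and -0.0433 for antioxidant defence. The receptor gene TNFRSF1A differed by 0.0672 at 24 h and by -0.134 at 48 h.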

How the results depend on the processing

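The calls rest on 1 residual degree of freedom per gene, and each library holds at least 49948198 reads. Counts of calls stayed within 1.5 times under median centring, log2(CPM) without the added 1, a mean of at least 1, no variance trend and edgeR. Without the time term they were 637 higher and 673 lower, and DESeq2 called 978 lower. Leaving out 1 library, which also dropped the time term, gave 342 to 402 higher and 296 to 358 lower calls, and the 2 choices cannot be told apart in these fits. Without the added 1, 1266 genes differed by at least 1 at 24 h and 1140 at 48 h, as low genes are no longer damped. Of 231 called named genes, 110 kept their call in all 11 alternatives. In 9 genes the sign changed in a fit with 1 library and the time term left out, and the lowest and highest differences over those fits were A2M (-0.012 to 0.84), POU4F1 (-0.18 to 0.87), SOX10 (-0.034 to 1.11), MYOG (-0.99 to 0.28), CDC20 (-0.61 to 0.021), JUNB (-0.080 to 1.898), FOS (-2.73 to 1.02), FOSB (-3.15 to 1.64) and HSPA1B (-0.56 to 0.050). No paired analysis was possible beyond that by time because each treatment and time has 1 library. The reported fit, with time as a term, already sets TNF against VC within each time.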

Other observations

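Members of the gene lists that the bulk table does not list can still be read in the single-cell libraries, as sums over all cells with 1 library per condition and no test. Of 123 such genes 23 had at least 50 UMIs, and the 95% interval of the TNF over VC ratio of CPM lay above 1 in 11 and below 1 in 7. UBD, a ubiquitin-like protein known to be induced by cytokines, had 62 UMIs in VC and 6132 in TNF, a ratio of 109 (85.1 to 143). PSMB9, an immunoproteasome subunit, had 34 and 827 UMIs, a ratio of 26.9 (19.1 to 39.0). BCL2A1, a survival factor, had 70 and 1443 UMIs, a ratio of 22.8 (17.9 to 29.4). Among chemokines, CXCL8 (27 and 254 UMIs), CXCL11 (12 and 174) and CCL7 (58 and 287) had ratios of 10.4 (6.97 to 16.1), 16.0 (8.93 to 31.6) and 5.46 (4.11 to 7.38). CCL11 (13 and 44 UMIs) was at 3.74 (1.98 to 7.56), while CXCL13 (179 and 147) was at 0.907 (0.724 to 1.13), an interval that includes 1. CFB, of the alternative complement pathway, had 41 and 228 UMIs, a ratio of 6.14 (4.39 to 8.78). HES5, a Notch target of neural progenitors, had 1339 and 207 UMIs, a ratio of 0.171 (0.147 to 0.198), and IL1B had 85 and 45, a ratio of 0.584 (0.398 to 0.848). The libraries differ in depth per cell and in cell number, and the part of cell composition in these ratios was not tested.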
